A study of Saccharomyces cerevisiae with 16 samples.

Results

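Budding yeast (Saccharomyces cerevisiae) keeps several genes in an aerobic and a hypoxic copy. The 9 genes described here form 4 such families. They are CYC1 and CYC7, the isoforms of cytochrome c; COX5A and COX5B, the isoforms of subunit V of cytochrome c oxidase; HYP2 and ANB1, the copies of the translation factor eIF5A; and PET9 and AAC3, carriers that exchange ADP and ATP across the inner mitochondrial membrane, with the minor carrier AAC1. They were chosen by name as known paralogs, with earlier results of these data known, and all 9 of the 6692 genes in the deposited table were found by their standard names. All 9 were among the 5876 genes tested. The level of the hypoxic copy was set against that of the aerobic copy within each of 16 libraries of polyadenylated RNA.

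Each of 4 groups holds 4 libraries, whose replicate numbers run from 2 to 5. They are WT (labelled wild type), H113N (H3H113N, by its name an exchange of a histidine of histone H3 for asparagine), WT YFH1-off (p(GAL1)-YFH1) and H113N YFH1-off (H3H113N with p(GAL1)-YFH1). YFH1 encodes yeast frataxin, a mitochondrial protein that acts in iron-sulfur cluster assembly, and behind the GAL1 promoter its transcription is shut off where galactose is absent. Both off groups carry the promoter construct and neither on group is labelled with it, so YFH1 shutoff and strain construction cannot be told apart. Growth is described in the labels for YFH1-off cells only, and the same text is attached to all 16 samples: cells kept on YPG were put into SC at OD600 1 and shaken at 30 °C for 36 h with dilution every 12 h, and 8 h more brought the total to 44 h. The labels give no difference in oxygen between groups, and the strain background is not given in the sources used here. The layout asks what loss of frataxin does in each H3 genotype and whether the response differs between them.

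As background, oxygen is sensed in this yeast largely through heme, whose synthesis needs oxygen. With heme, the activators Hap1 and Hap2/3/4/5 raise aerobic genes, Hap4 being the subunit whose level limits the complex, and Hap1 also raises ROX1, which encodes a repressor of hypoxic genes that works with Tup1 and Cyc8. When oxygen or heme is short, ROX1 transcription falls, hypoxic copies such as ANB1, COX5B and AAC3 are released from repression, and aerobic copies such as CYC1 and COX5A lose their activation. Iron-sulfur clusters and heme are both made from iron in mitochondria, which is where frataxin acts.

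The stretch upstream of ANB1 is shown first because ANB1 gave the largest rise among the 9 genes and this stretch holds the letters ATTGTT, the core of the site that Rox1 binds, more often than that of any other member. Sequences come from the RefSeq R64 genome, the build called sacCer3, on the strand of the gene, and capitals mark ATTGTT or its reverse complement. The windows are chrX:525562-525701 on the minus strand for ANB1, chrIX:154982-155021 on the plus strand for COX5B, chrXIV:531610-531649 on the plus strand for COX5A and chrII:415773-415812 on the plus strand for AAC3.
ANB1: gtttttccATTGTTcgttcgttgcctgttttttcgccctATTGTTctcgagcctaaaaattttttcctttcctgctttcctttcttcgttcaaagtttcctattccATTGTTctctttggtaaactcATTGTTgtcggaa
COX5B: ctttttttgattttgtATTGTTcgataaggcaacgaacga
COX5A: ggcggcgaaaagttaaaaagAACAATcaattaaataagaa
AAC3: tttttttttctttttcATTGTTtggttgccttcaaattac

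In the 500 bases before the start codon, on either strand, ATTGTT was found 4 times for ANB1, 3 times for COX5B, once for COX5A and once for AAC3, and not for CYC1, CYC7, HYP2, PET9 or AAC1. Of 6000 genes, 48.9% had at least 1 match and 2.98% had 3 or more in windows of that length. The longer ATTGTTC, each match of which also counts as ATTGTT, was found 3 times for ANB1 and once each for COX5A and COX5B, against 11.8% of genes with at least 1 match. CCAAT, the letters that Hap2/3/4/5 binds, was found 3 times for PET9, in a pair of places each for COX5A, COX5B, HYP2 and AAC1, once each for CYC7 and AAC3, and not for CYC1 or ANB1, where 62.4% of genes had at least 1. The gapped Hap1 motif, searched as CGG, 3 free bases, TA, 1 free base and CGG, was found for 0.35% of genes and for no member. A match is a description of the letters and is no evidence of binding here.

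How far reads can be assigned to 1 copy depends on how alike the copies are. HYP2 and ANB1 are the closest, with 431 of 474 coding bases identical (90.9%). A window of 120 coding bases with only 5 differences, from coding base 19 to 138, is shown with the differing bases in capitals. HYP2 lies at chrV:85694-85813 on the plus strand and ANB1 at chrX:525244-525363 on the minus strand.
HYP2: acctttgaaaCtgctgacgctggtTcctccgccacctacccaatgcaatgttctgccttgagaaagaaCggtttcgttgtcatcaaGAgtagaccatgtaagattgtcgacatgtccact
ANB1: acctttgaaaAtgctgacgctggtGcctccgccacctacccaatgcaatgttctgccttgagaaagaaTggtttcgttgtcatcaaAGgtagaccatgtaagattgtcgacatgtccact

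Their longest shared run was 43 bases, and no run of 50 bases was shared within any pair. Coding identity was 76.4% for CYC1 and CYC7, 66.4% for COX5A and COX5B, 78.4% for PET9 and AAC3, 70.3% for PET9 and AAC1 and 68.6% for AAC1 and AAC3. The read length and the treatment of reads that match in several places are not given in the sources used here, so a small share of HYP2 reads assigned to ANB1, or lost from both, cannot be told from these counts. No other RefSeq gene overlapped a member. ANB1 (chrX:524908-525381, minus strand) and CYC1 (chrX:526335-526664, plus strand) are neighbours that point away from each other with 953 bases between them, and their log2 fold changes with YFH1 shutoff had opposite signs in both genotypes.

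Library depth ran from 6694390 to 10663540 counts, and values are given as CPM, which are counts scaled to a common library size. The check on the shutoff was YFH1 itself, which averaged 63.5 CPM in WT, 51.8 in H113N, 7.16 in WT YFH1-off and 10.6 in H113N YFH1-off. Its log2 fold change was -3.14 in WT (SE 0.121, adjusted p = 1.95e-12, edgeR quasi-likelihood) and -2.30 in H113N (SE 0.111, adjusted p = 1.04e-09, edgeR). The H113N label cannot be checked from counts per gene. WT replicate 2 stood apart from the other WT libraries: the chi-square per degree of freedom over genes was 54.7 to 76.8 for its 3 pairs and 4.24 to 8.61 for the other WT pairs, so the members' fold changes and ratios in WT are also given without it. The H113N libraries were uneven too, though less so. The pairs of H113N replicate 3 gave 27.9, 32.9 and 17.1, and the other H113N pairs 6.17, 12.3 and 15.4. The 4 markers of MATa cells summed to 1196 to 1463 CPM in WT, 1472 to 1745 in H113N, 235 to 328 in WT YFH1-off and 1007 to 1109 in H113N YFH1-off. The 3 MATalpha markers summed to 4.60 to 5.70, 46.0 to 51.1, 7.43 to 10.1 and 30.7 to 38.3 CPM in the same order, with only MF(ALPHA)2 at 0, in 1 WT YFH1-off library. All 4 MATa markers were called lower in both shutoffs, beside 25% of all genes in WT and 8.73% in H113N. All 3 MATalpha markers were called higher in H113N than in WT, beside 23% of all genes with YFH1 on and 27.2% with it off. MF(ALPHA)2 passed the filter on low counts (1.17 CPM) only through the H113N groups (at most 0.691 CPM in WT and 0.343 in WT YFH1-off). MF(ALPHA)1 was near that level without H113N (at most 1.36 and 1.29 CPM). The calls of both are thus a description and carry no support. The part of these marker shifts in the results below was not tested. In whole cultures, fewer cells with a transcript and less of it per cell cannot be told apart.

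In WT, all 4 aerobic copies fell with YFH1 off and 2 of the 4 hypoxic copies rose. CYC1, COX5A, HYP2 and PET9 were called lower, ANB1, AAC3 and the third carrier AAC1 were called higher, and CYC7 and COX5B were not called. For comparison, 24.5% of the genes tested were called higher and 25% lower in that comparison (edgeR quasi-likelihood, Benjamini-Hochberg adjusted p under 0.05). In H113N the same 4 aerobic copies fell and ANB1 and AAC3 rose, while CYC7, COX5B and AAC1 were not called, beside 11.8% of genes called higher and 8.73% lower. With library sizes alone in place of scaled sizes the share of calls that were higher was 30.9% in place of 49.5% in WT and 37.2% in place of 57.6% in H113N, and the median of all genes moved from 0.0087 to -0.107 (log2) in WT. The direction of each called member was the same under both scalings.

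Without WT replicate 2 the log2 fold changes with shutoff in WT were -6.09 for CYC1, -1.71 for COX5A, -1.39 for HYP2 and -1.24 for PET9, and each was still called lower. They were 3.54 for ANB1, 1.20 for AAC3 and 0.41 for AAC1 (adjusted p = 0.0173, edgeR), each still called higher.

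**Figure D1:**
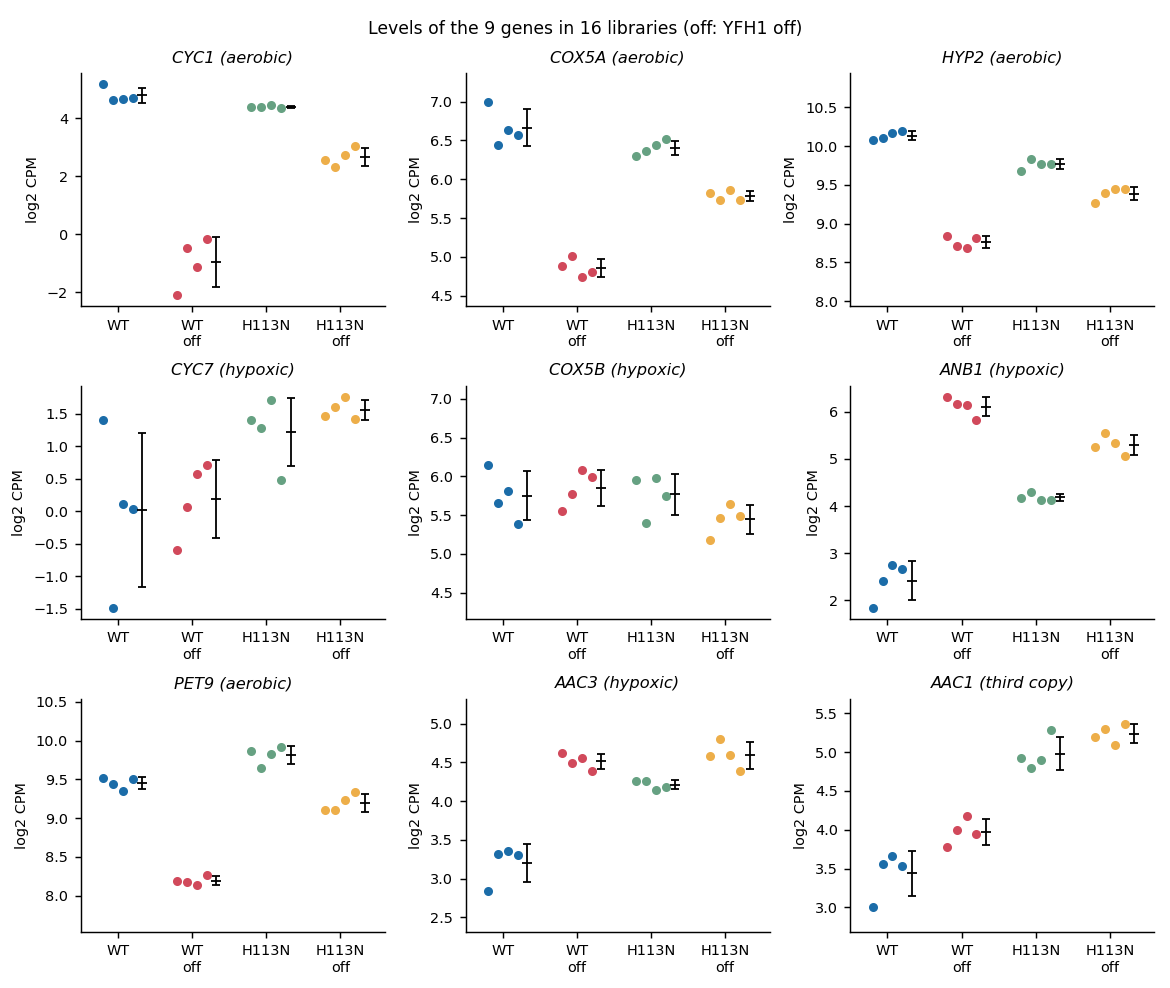
Level of each of the 9 genes in each library, on a log2 CPM axis whose height is at least 3 units in every panel. Dots are libraries in order of replicate number within each group (off: YFH1 off), and the black bar is the mean ± SD, n = 4. The 4 aerobic copies are lowest in WT YFH1-off, ANB1 is highest there, and COX5B overlaps between all groups.

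Cytochrome c carries electrons from the bc1 complex to cytochrome c oxidase, and CYC1 encodes the main aerobic isoform. Values of 4 libraries are given here and below in the order of replicates 2, 3, 4 and 5. CYC1 (YJR048W) had 313, 197, 207 and 225 counts in WT and 0, 3, 2 and 6 counts in WT YFH1-off. Its counts were 179, 161, 197 and 172 in H113N and 53, 51, 69 and 68 in H113N YFH1-off. In WT YFH1-off 3 of 4 libraries were thus at 3 counts or fewer, whereas each H113N YFH1-off library held many more, and no off library of either genotype overlapped an on library. The means were 27.7 ± 5.55 CPM in WT, 20.7 ± 0.622 in H113N, 0.341 ± 0.286 in WT YFH1-off and 6.19 ± 1.35 in H113N YFH1-off (SD, n = 4 each).

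The summed counts of CYC1, 942 in WT and 11 in WT YFH1-off, gave a level 78.7 times higher with YFH1 on (exact 95% interval 43.8 to 158, for counting error only). In H113N the ratio was 3.39 (2.93 to 3.94). The edgeR log2 fold change was -6.24 in WT (SE 0.298, adjusted p = 2.42e-11) and -1.75 in H113N (SE 0.178, adjusted p = 3.67e-06), and the size of the WT value rests on few counts. The difference between these effects was 4.49 on the log2 scale (SE 0.408, adjusted p = 3.42e-07, edgeR), and without WT replicate 2 it was 4.33.

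CYC7 (YEL039C), the hypoxic isoform, was scarce in every group and did not pass the test in either shutoff. It had 21, 1, 7 and 7 counts in WT, 3, 5, 11 and 13 in WT YFH1-off, 21, 17, 28 and 10 in H113N and 24, 30, 34 and 21 in H113N YFH1-off. The WT libraries alone ran from 1 to 21 counts, and the on and off groups overlapped in both genotypes. The CYC7 ratio of on to off was 1.03 in WT (exact 95% interval 0.624 to 1.72) and 0.804 in H113N (0.592 to 1.09). Its log2 fold change was -0.053 in WT (SE 0.545, adjusted p = 0.946, edgeR) and 0.31 in H113N (SE 0.369, adjusted p = 0.62, edgeR), and without WT replicate 2 the WT value was 0.77 (adjusted p = 0.228, edgeR). CYC7 passed the filter on low counts through both H113N groups: 4 of 4 libraries in each reached 1.17 CPM, as did 1 of 4 in WT and 2 of 4 in WT YFH1-off.

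The balance between the isoforms nonetheless moved, since CYC1 fell. The log2 ratio of CYC7 to CYC1, with 0.5 added to each count, was -3.87, -7.04, -4.79 and -4.91 in WT and 2.81, 0.65, 2.20 and 1.05 in WT YFH1-off. It was -3.06, -3.21, -2.79 and -4.04 in H113N and -1.13, -0.76, -1.01 and -1.67 in H113N YFH1-off. CYC7 thus exceeded CYC1 in each WT YFH1-off library and in none of the other 12. Over summed counts CYC7 made up 32 of 43 reads of the pair in WT YFH1-off, or 74.4% (exact 95% interval 58.8 to 86.5), against 3.68% in WT, 9.68% in H113N and 31.1% in H113N YFH1-off.

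The shift in the log2 ratio was 6.83 in WT (SE 0.837) and 2.13 in H113N (SE 0.331). Each was at the smallest p that an exact permutation test of 4 against 4 libraries can give (0.0286, two-sided, 2 of 70 splits). The shifts differed by -4.70 (exact permutation p = 0.0286). With a pseudocount of 2 the WT shift was 5.86, and without WT replicate 2 it was 7.26. Cytochrome c transcripts as a whole were far fewer: CYC1 and CYC7 together averaged 28.8 ± 6.49 CPM in WT, 1.32 ± 0.675 in WT YFH1-off, 22.9 ± 1.38 in H113N and 8.93 ± 1.29 in H113N YFH1-off.

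COX5A (YNL052W, chrXIV:531725-532186, plus strand) encodes subunit Va of cytochrome c oxidase, the aerobic form. It stood at 127.5, 86.4, 99.4 and 95.2 CPM in WT and at 29.2, 32.0, 26.4 and 27.7 CPM in WT YFH1-off. In H113N its level was 78.7, 82.2, 86.5 and 91.2 CPM, and in H113N YFH1-off 56.5, 53.0, 57.9 and 52.9 CPM. On and off libraries did not overlap in either genotype, and the H113N YFH1-off libraries lay above all WT YFH1-off libraries. COX5A fell by 1.83 on the log2 scale in WT (SE 0.103, adjusted p = 1.98e-10, edgeR) and by 0.62 in H113N (SE 0.0959, adjusted p = 0.000222, edgeR), a difference of 1.21 (SE 0.14, adjusted p = 5.11e-06, edgeR).

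COX5B (YIL111W, chrIX:155222-155765, plus strand), the hypoxic subunit Vb, was the steadiest of the 9 genes, with group means on the log2 CPM scale that spanned 0.41. It stood at 70.4, 50.2, 55.8 and 41.6 CPM in WT, at 46.9, 54.4, 67.5 and 63.1 in WT YFH1-off, at 61.5, 42.1, 62.7 and 53.3 in H113N and at 36.1, 43.7, 49.7 and 44.7 in H113N YFH1-off. All 4 groups overlapped. Its log2 fold change with shutoff was 0.095 in WT (SE 0.159, 95% interval -0.22 to 0.41, adjusted p = 0.648, edgeR) and -0.33 in H113N (SE 0.16, interval -0.65 to -0.022, adjusted p = 0.16, edgeR). These intervals use a normal multiplier and are narrower than the test implies. Even unadjusted, the p of the H113N value was 0.052 (edgeR), above the threshold. Without WT replicate 2 the WT value was 0.25 (adjusted p = 0.148, edgeR), and without replicate 2 of every group it was called at 0.34 (adjusted p = 0.0389, edgeR; 0.0389 to 0.973 over the alternatives). Fitted on the H113N libraries alone, the H113N value passed the threshold at -0.36 (adjusted p = 0.0405, edgeR), with adjusted p between 0.0405 and 0.339 over the alternatives tried.

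The order of the isoforms turned over in WT. Per length, COX5A averaged 221 CPM per kb of coding sequence in WT and 62.4 in WT YFH1-off, and COX5B 119 and 127. The log2 ratio of COX5B to COX5A was -0.86, -0.78, -0.83 and -1.20 in WT and 0.68, 0.76, 1.35 and 1.19 in WT YFH1-off. It was -0.36, -0.97, -0.46 and -0.78 in H113N and -0.65, -0.28, -0.22 and -0.24 in H113N YFH1-off. All WT libraries were below 0 and all WT YFH1-off libraries above it, while both H113N groups stayed below 0 and overlapped.

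The shift in this ratio was 1.91 in WT (SE 0.187, exact permutation p = 0.0286) and 0.29 in H113N (SE 0.173, exact permutation p = 0.171), and the shifts differed by -1.62 (exact permutation p = 0.0286). The WT shift was 1.93 without WT replicate 2. COX5B made up 34.7% ± 2.89 of the counts of the pair in WT, 66.5% ± 4.95 in WT YFH1-off, 39.2% ± 4.62 in H113N and 44.0% ± 3.41 in H113N YFH1-off (SD, n = 4). The pair as a whole averaged 156.6 ± 28.9 CPM in WT against 86.8 ± 7.81 in WT YFH1-off, and 139.5 ± 10.8 CPM in H113N against 98.6 ± 6.40 in H113N YFH1-off (exact permutation p = 0.0286 for each).

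**Figure D2:**
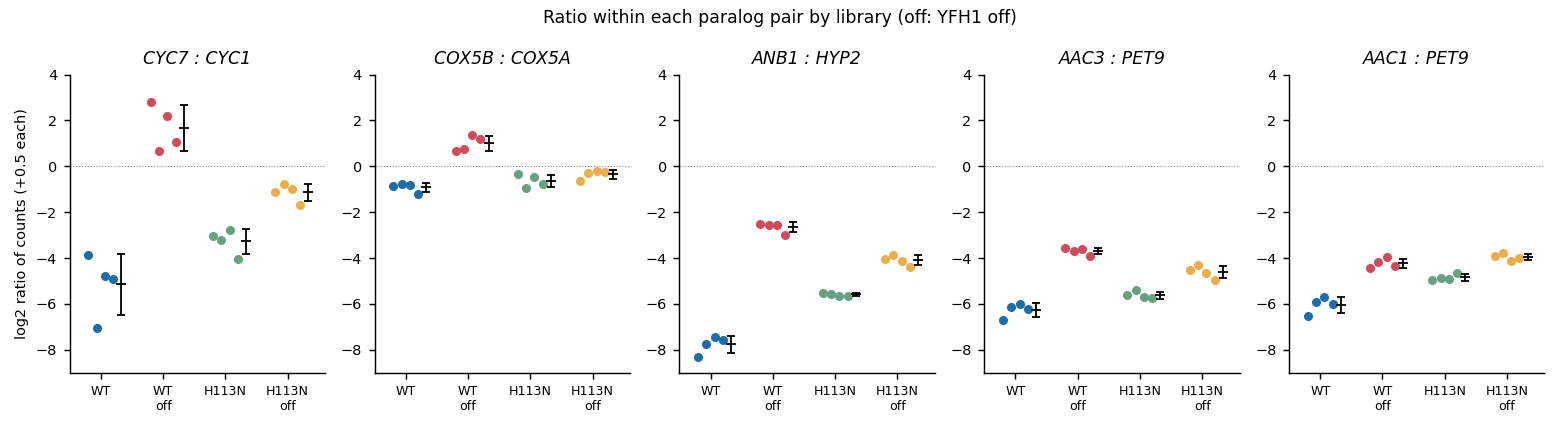
Log2 ratio of counts within each family (0.5 added to each count) by library, with the mean ± SD of 4 libraries at the right of each group and equal counts at the dotted line. CYC7 to CYC1 and COX5B to COX5A lie above 0 in WT YFH1-off and below 0 in the other groups, and the other ratios stay below 0 throughout.

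PET9 (YBL030C, also called AAC2, chrII:163041-163997, minus strand) is the main ADP/ATP carrier in respiring cells. Its level was 730.4, 696, 653 and 729 CPM in WT and 292, 289, 282 and 308 in WT YFH1-off. In H113N it was 937, 802, 904 and 967 CPM, and in H113N YFH1-off 549, 548, 600.5 and 645. No group overlapped another, although the highest H113N YFH1-off library lay just under the lowest WT library. PET9 fell by 1.26 on the log2 scale in WT (SE 0.0672, adjusted p = 1.06e-10, edgeR) and by 0.62 in H113N (SE 0.066, adjusted p = 5.54e-06, edgeR), a difference of 0.64 (SE 0.0935, adjusted p = 6.22e-05, edgeR).

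AAC3 (YBR085W, chrII:415983-416906, plus strand), the carrier induced without oxygen, rose in both genotypes and from different starting levels. It stood at 6.91, 9.79, 10.0 and 9.63 CPM in WT and 24.3, 22.2, 23.2 and 20.7 in WT YFH1-off. In H113N it was 19.0, 19.0, 17.4 and 18.0 CPM with YFH1 on, already above every WT library, and 23.7, 27.6, 23.8 and 20.7 with YFH1 off. The off groups of both genotypes overlapped. The log2 fold change was 1.31 in WT (SE 0.114, adjusted p = 5.51e-08, edgeR) and 0.39 in H113N (SE 0.102, adjusted p = 0.012, edgeR), with a difference of -0.93 (SE 0.154, adjusted p = 0.000202, edgeR). The H113N call was lost without H113N YFH1-off replicate 3 (0.31, adjusted p = 0.0535, edgeR), and over the alternatives its adjusted p ran from 0.00186 to 0.125.

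AAC1 (YMR056C, chrXIII:387315-388244, minus strand), a minor carrier with no partner of its own in these pairs, was higher in H113N than in WT at either state of YFH1. It stood at 7.83, 11.5, 12.4 and 11.3 CPM in WT, 13.4, 15.7, 17.9 and 15.1 in WT YFH1-off, 30.2, 27.6, 29.6 and 38.9 in H113N and 36.5, 39.3, 34.0 and 40.9 in H113N YFH1-off. Every library with H113N lay above all 8 without it. It rose by 0.53 (log2, SE 0.147, adjusted p = 0.00612, edgeR) with shutoff in WT. In H113N its log2 fold change was 0.25 (SE 0.119, adjusted p = 0.156, edgeR), and without H113N replicate 5 it was 0.37 (adjusted p = 0.0361, edgeR), with adjusted p from 0.0361 to 0.60 over the alternatives. Its neighbour FET3, a multicopper oxidase gene of iron uptake 577 bases away that points in the opposite direction, changed by 2.27 in WT (SE 0.224, adjusted p = 2.70e-07, edgeR).

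PET9 remained by far the main carrier. Per length it averaged 734, 306, 943 and 612 CPM per kb in WT, WT YFH1-off, H113N and H113N YFH1-off, against 9.83, 24.5, 19.9 and 25.9 for AAC3 and 11.6, 16.7, 33.9 and 40.5 for AAC1. The log2 ratio of AAC3 to PET9 was -6.71, -6.14, -6.02 and -6.23 in WT and -3.58, -3.70, -3.60 and -3.89 in WT YFH1-off. It was -5.62, -5.40, -5.69 and -5.74 in H113N and -4.53, -4.31, -4.65 and -4.96 in H113N YFH1-off. No group overlapped another, and the order from lowest to highest was WT, H113N, H113N YFH1-off and WT YFH1-off.

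The AAC3 to PET9 ratio shifted by 2.58 in WT (SE 0.168) and by 1.00 in H113N (SE 0.156), each with exact permutation p = 0.0286, and the shifts differed by -1.58 (exact permutation p = 0.0286). For AAC1 to PET9 the shifts were 1.80 (SE 0.202) and 0.89 (SE 0.102), with the same exact permutation p, and differed by -0.92 (exact permutation p = 0.0286). The WT shifts were 2.44 and 1.64 without WT replicate 2. AAC3 and AAC1 together made up 2.77% of carrier counts in WT, 11.6% in WT YFH1-off, 5.24% in H113N and 9.56% in H113N YFH1-off. The summed carriers averaged 722 ± 34.1 CPM in WT, 331 ± 9.08 in WT YFH1-off, 952 ± 75.1 in H113N and 647 ± 45.4 in H113N YFH1-off, lower with YFH1 off in both genotypes (exact permutation p = 0.0286 for each).

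HYP2 (YEL034W, chrV:85676-86149, plus strand) encodes the aerobic eIF5A, a translation factor that carries the modified residue hypusine. It was the most abundant member per length in every group, at 2375 CPM per kb in WT. Its level was 1082, 1100, 1150 and 1171 CPM in WT, 458, 420, 411 and 448 in WT YFH1-off, 822, 916, 872 and 874 in H113N and 617, 671, 698 and 696 in H113N YFH1-off. No group overlapped another. HYP2 fell by 1.37 on the log2 scale in WT (SE 0.0545, adjusted p = 2.61e-12, edgeR) and by 0.38 in H113N (SE 0.0535, adjusted p = 9.42e-05, edgeR), a difference of 1.00 (SE 0.0758, adjusted p = 4.73e-08, edgeR). MTC7 starts 29 bases downstream of HYP2 on the same strand, and its log2 fold changes were -1.35 in WT and -0.42 in H113N, close to those of HYP2. Whether reads of one were counted for the other was not tested.

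ANB1 (YJR047C), the hypoxic eIF5A gene, gave the largest rise among the members. It stood at 3.34, 5.08, 6.52 and 6.11 CPM in WT and at 79.5, 71.6, 70.3 and 56.2 CPM in WT YFH1-off. In H113N it was 17.9, 19.5, 17.4 and 17.4 CPM with YFH1 on and 37.9, 46.5, 40.2 and 32.9 with YFH1 off. The groups did not overlap, and ran from WT through H113N and H113N YFH1-off to WT YFH1-off. ANB1 rose by 3.72 on the log2 scale in WT (SE 0.16, adjusted p = 6.79e-12, edgeR) and by 1.13 in H113N (SE 0.136, adjusted p = 2.15e-05, edgeR), a difference of -2.58 (SE 0.215, adjusted p = 1.23e-07, edgeR).

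The log2 ratio of ANB1 to HYP2 was -8.32, -7.74, -7.45 and -7.57 in WT and -2.52, -2.55, -2.55 and -3.00 in WT YFH1-off. It was -5.52, -5.55, -5.64 and -5.65 in H113N and -4.02, -3.85, -4.11 and -4.40 in H113N YFH1-off. HYP2 remained above ANB1 in all 16 libraries, by a factor of 218 in WT and 6.30 in WT YFH1-off from the mean log2 ratios. The shift was 5.11 in WT (SE 0.223) and 1.49 in H113N (SE 0.119), each with exact permutation p = 0.0286, and the shifts differed by -3.62 (exact permutation p = 0.0286); without WT replicate 2 the WT shift was 4.93.

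ANB1 made up 0.463% ± 0.112 of eIF5A counts in WT, 13.8% ± 1.76 in WT YFH1-off, 2.03% ± 0.0891 in H113N and 5.56% ± 0.813 in H113N YFH1-off (SD, n = 4). In absolute CPM the gain of ANB1 was small beside the loss of HYP2: the pair together dropped from 1131 ± 42.8 CPM in WT to 504 ± 24.2 in WT YFH1-off, and from 889 ± 39.1 CPM in H113N to 709.8 ± 37.5 in H113N YFH1-off (exact permutation p = 0.0286 for each). The sum does not depend on how reads common to both genes were divided.

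**Figure D3:**
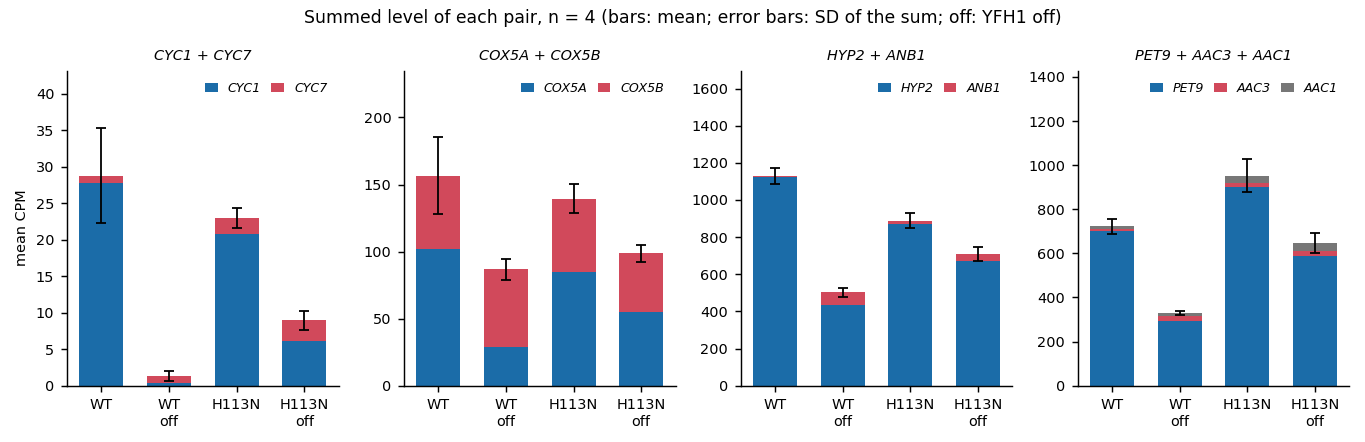
Mean CPM of each family, stacked by gene, with the SD of the sum as the error bar (n = 4; off: YFH1 off). Each family's sum is lower with YFH1 off than on in both genotypes; cytochrome c stands at 28.8 and 1.32 CPM in WT and WT YFH1-off.

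The same genes were then compared between the H3 genotypes at each state of YFH1. With YFH1 on, 23% of the genes tested were called higher in H113N than in WT and 23.2% lower, and among the members ANB1, AAC3, AAC1 and PET9 were called higher and CYC1, COX5A and HYP2 lower. With YFH1 off, beside 27.2% of genes higher and 25.2% lower, CYC1, COX5A, HYP2, PET9 and AAC1 were called higher and ANB1 and COX5B lower, with CYC7 left out of the count because of how it passed the filter on low counts. HYP2 was thus lower in H113N than in WT with YFH1 on and higher with YFH1 off, and ANB1 the reverse. CYC1 and COX5A went the way of HYP2, but their calls with YFH1 on were lost under several alternatives, given below. These comparisons share libraries with those of the shutoff and are not independent of them. With library sizes alone the share of calls that were higher was 66.1% in place of 49.7% with YFH1 on and 73.9% in place of 51.9% with YFH1 off, where the median of all genes moved to 0.133 (log2).

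With YFH1 on, the hypoxic copies ANB1 and AAC3 rose in H113N by 1.77 (SE 0.176, adjusted p = 6.18e-07, edgeR) and 1.01 (SE 0.115, adjusted p = 2.74e-06, edgeR) on the log2 scale, and AAC1 by 1.55 (SE 0.136, adjusted p = 1.65e-07, edgeR). PET9, an aerobic copy, also rose, by 0.36 (SE 0.0659, adjusted p = 3.00e-04, edgeR), and HYP2 fell by 0.37 (SE 0.0534, adjusted p = 3.38e-05, edgeR). Without WT replicate 2 these 5 values were 1.60, 0.90, 1.43, 0.38 and -0.39, and each was called.

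The falls of CYC1 (-0.42, SE 0.154, adjusted p = 0.0347, edgeR) and COX5A (-0.27, SE 0.0939, adjusted p = 0.0265, edgeR) were small and did not hold under all alternatives. With library sizes alone they were -0.35 (adjusted p = 0.0827, edgeR) and -0.20 (adjusted p = 0.107, edgeR), and without WT replicate 2 they were -0.27 (adjusted p = 0.074) and -0.15 (adjusted p = 0.0722). Over the alternatives the adjusted p ran from 0.0177 to 0.0834 for CYC1 and from 0.00955 to 0.205 for COX5A. In the authors' deposited table the adjusted p-values of this comparison were 0.146 for CYC1 and 0.0466 for COX5A. The CYC1 call was also lost without any 1 of the H113N libraries (-0.40 to -0.44) or WT YFH1-off replicate 3 (-0.41) or 4 (-0.41), and the COX5A call without H113N replicate 2 (-0.24) or 3 (-0.26). CYC7 was not called (1.06, SE 0.456, adjusted p = 0.0692, edgeR), but was called without WT replicate 2 (1.87, adjusted p = 0.00167, edgeR) or H113N replicate 5 (1.27, adjusted p = 0.0353, edgeR), with adjusted p from 0.00167 to 0.338 over the alternatives. Since CYC7 passed the filter on low counts only through the H113N groups, such calls of it carry no support. COX5B was not called (0.013, SE 0.159, 95% interval -0.30 to 0.32, adjusted p = 0.956, edgeR).

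With YFH1 off, CYC1 was higher in H113N by 4.07 (log2, SE 0.371, adjusted p = 1.29e-07, edgeR), COX5A by 0.94 (SE 0.104, adjusted p = 1.25e-06, edgeR), HYP2 by 0.63 (SE 0.0538, adjusted p = 6.00e-08, edgeR) and PET9 by 1.00 (SE 0.0669, adjusted p = 3.05e-09, edgeR). The size of the CYC1 value rests on 11 summed counts in WT YFH1-off, where 0 of 4 libraries reached the level of the filter on low counts. ANB1 was lower by -0.81 (SE 0.123, adjusted p = 3.93e-05, edgeR). The CYC7 difference was 1.42 (SE 0.442, adjusted p = 0.0127, edgeR), but CYC7 passed the filter on low counts only through the H113N groups, so its value is a description and its call carries no support; without replicate 4 of every group CYC7 was not called (1.47, adjusted p = 0.06, edgeR; 5.44e-04 to 0.06 over the alternatives). AAC1 was higher by 1.27 (SE 0.129, adjusted p = 4.74e-07, edgeR). AAC3 did not pass the test, with a log2 difference of 0.089 (95% interval -0.11 to 0.29, adjusted p = 0.496, edgeR).

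COX5B was lower in H113N YFH1-off than in WT YFH1-off by -0.42 (SE 0.16, adjusted p = 0.038, edgeR), but with library sizes alone it was not called (-0.29, adjusted p = 0.142, edgeR). It was also lost without WT YFH1-off replicate 4 (-0.33) or 5 (-0.38) and without H113N YFH1-off replicate 2 (-0.34), 3 (-0.42) or 5 (-0.43). Its adjusted p ran from 0.00327 to 0.142 over the alternatives.

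In terms of ratios, H113N differed from WT with YFH1 on in the direction of the hypoxic copy for ANB1 to HYP2 (2.18, SE 0.195) and AAC3 to PET9 (0.66, SE 0.17), each with exact permutation p = 0.0286. AAC1 to PET9, a ratio without a hypoxic copy, was also higher (1.19, SE 0.191, exact permutation p = 0.0286). The difference was 1.88 for CYC7 to CYC1 (SE 0.723, exact permutation p = 0.0571) and 0.28 for COX5B to COX5A (SE 0.169, exact permutation p = 0.2), and in both of these the groups overlapped. Without WT replicate 2 the differences of AAC3 to PET9, AAC1 to PET9, CYC7 to CYC1 and COX5B to COX5A were 0.52, 1.03, 2.31 and 0.30, and that of ANB1 to HYP2 was 1.997. With YFH1 off the ratio was lower in H113N than in WT in each of the 4 pairs: by -2.82 for CYC7 to CYC1 (SE 0.535), -1.34 for COX5B to COX5A (SE 0.19), -1.44 for ANB1 to HYP2 (SE 0.161) and -0.92 for AAC3 to PET9 (SE 0.154), each with exact permutation p = 0.0286. AAC1 to PET9 did not pass (0.28, SE 0.122, exact permutation p = 0.0857). In all, 25 comparisons of ratios were made, 5 for each of 5 ratios, and 21 of them were at the smallest p the design allows.

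**Figure D4:**
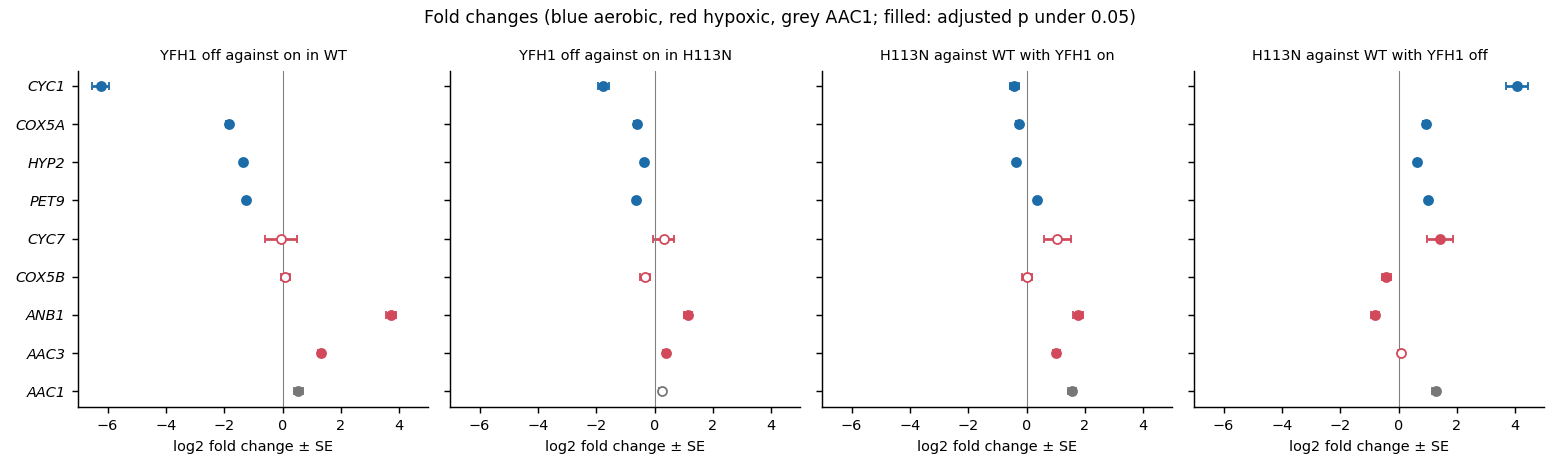
Log2 fold change ± SE of each gene in 4 comparisons (edgeR, 16 libraries), with aerobic copies in blue, hypoxic copies in red and AAC1 in grey; filled points have an adjusted p under 0.05. The aerobic copies lie left of 0 in both shutoffs, from -6.24 to -1.26 in WT and from -1.75 to -0.38 in H113N, and right of 0 in H113N against WT with YFH1 off.

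For the difference between the shutoff effects, 17% of the genes tested were called higher and 13.8% lower (with library sizes alone, 65.9% of calls were higher in place of 55.2%). All 4 aerobic copies were called higher, which here means that they fell less in H113N, and ANB1 and AAC3 lower, which means that they rose less. YFH1 itself also fell less in H113N, with a difference of 0.84 (SE 0.17, adjusted p = 0.00113, edgeR). With YFH1 off its level was higher in H113N than in WT by 0.55 (log2, SE 0.14, adjusted p = 0.00367, edgeR). The part of this unequal shutoff in the differences was not tested. CYC7 (0.36, SE 0.66, adjusted p = 0.725), COX5B (-0.43, SE 0.225, adjusted p = 0.169) and AAC1 (-0.28, SE 0.189, adjusted p = 0.289) were not called by edgeR. Without WT replicate 2 the differences were 1.09 for COX5A, 1.01 for HYP2, -2.41 for ANB1, 0.62 for PET9 and -0.81 for AAC3, each called, and -0.46 for CYC7 and -0.16 for AAC1, not called. For the ratios the differences between the shifts were then -4.75 for CYC7 to CYC1, -1.74 for COX5B to COX5A, -3.40 for ANB1 to HYP2, -1.40 for AAC3 to PET9 and -0.82 for AAC1 to PET9. COX5B was called without that library (-0.58, adjusted p = 0.0221, edgeR), with adjusted p from 0.0221 to 0.467 over the alternatives.

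Among the known regulators of these pairs, HAP1 and ROX1 rose and HAP4 fell with shutoff in WT. HAP1 averaged 316 ± 22.7 CPM in WT, 1157 ± 50.5 in WT YFH1-off, 362 ± 17.8 in H113N and 429.9 ± 13.1 in H113N YFH1-off. It rose by 1.87 in WT (SE 0.0572) and by 0.25 in H113N (SE 0.0556, adjusted p = 0.0043, edgeR). ROX1, which encodes the repressor of hypoxic genes and was also in the list of aerobic genes, averaged 80.5 ± 7.54, 220 ± 16.8, 85.2 ± 8.20 and 110.2 ± 6.76 CPM in the same order. It rose by 1.45 in WT (SE 0.0806) and by 0.37 in H113N (SE 0.0801, adjusted p = 0.0034, edgeR), so that the transcripts of the repressor and of ANB1 rose together. HAP4 averaged 98.9 ± 9.09 CPM in WT and 20.1 ± 1.47 in WT YFH1-off and fell by 2.29 (log2, SE 0.0858), and stood at 77.1 ± 6.72 and 74.7 ± 4.68 CPM in H113N, a log2 fold change of -0.045 (SE 0.076, adjusted p = 0.74, edgeR). Transcript levels do not give the activity of these proteins. The list counts here and below are read against 24.5% of all genes called higher and 25% lower in WT, and 11.8% and 8.73% in H113N. Of the 14 regulators listed, 6 were called higher, 3 lower and 5 not called in WT, and 3, 1 and 10 in H113N, so the 3 lower in WT and the 1 lower in H113N were near the share of all genes, with a median log2 fold change of 0.13 and 0.094 against 0.0087 and 0.023 over all genes.

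Other genes known to rise without oxygen were mixed. Of 10, 5 were called higher and 3 lower in each genotype, the 3 lower in WT being near the 25% of all genes, with a median of 0.59 in WT and 0.21 in H113N. SUT1 was in this list and in that of the regulators. DAN1, a cell wall mannoprotein of anaerobic cells, averaged 0.177 ± 0.151 CPM in WT, 304 ± 37.4 in WT YFH1-off, 2.15 ± 0.387 in H113N and 9.86 ± 1.26 in H113N YFH1-off, and was called higher in both shutoffs. AUS1, a sterol importer, rose in WT, with 72.2 ± 6.06 CPM in WT and 473 ± 50.3 in WT YFH1-off, and stood at 77.0 ± 6.60 and 84.2 ± 3.26 CPM in H113N (log2 0.13, adjusted p = 0.295, edgeR). HEM13, which encodes a heme synthesis enzyme and is a classical hypoxic gene repressed by Rox1, was at 99.7 ± 11.0 CPM in WT and 49.7 ± 8.35 in WT YFH1-off; it was picked out after its values were seen.

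The aerobic genes outside the pairs were largely lower. Of 12 heme-dependent aerobic genes, 10 were called lower and 1 higher in WT, and 6 lower and 2 higher in H113N, with medians of -2.07 and -0.50. The lists share genes, so their counts are not separate. CYT1 and CYB2 are also among the genes that mature or use cytochrome c, COX4 and COX6 among the oxidase subunits, and ROX1 among the regulators. CYT1, the cytochrome c1 that hands electrons to cytochrome c, had a log2 fold change of -4.12 in WT (SE 0.209), to 6.37 ± 1.77 CPM, and of -1.05 in H113N (SE 0.166), to 34.5 ± 2.22 CPM. Of 6 genes that mature or use cytochrome c, 3 were called lower and 3 were not called in each genotype, with medians of -1.52 and -0.32. The 3 called were not the same genes in both, since CYB2 was called lower in WT only (adjusted p = 0.0507 in H113N, edgeR). Among the 6 genes CCP1, the cytochrome c peroxidase, fell by 3.26 (log2, SE 0.149) in WT and by 1.33 (SE 0.129) in H113N.

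All 7 listed nuclear subunits of cytochrome c oxidase other than subunit V were called lower in both genotypes, with median log2 fold changes of -1.50 (WT) and -0.60 (H113N), and all 7 were higher in H113N than in WT with YFH1 off (median 1.02), beside 27.2% of all genes. COX6, subunit VI, fell by 2.70 (log2, SE 0.136) in WT and 0.85 (SE 0.116) in H113N, and COX8, subunit VIII, by 1.62 (SE 0.0881) and 0.58 (SE 0.0805). COX5A thus fell beside its partner subunits, while COX5B, which fills the same place in the enzyme, had log2 fold changes of 0.095 and -0.33, called under some alternatives only.

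Partners of the carriers fell too: of 7 genes of phosphate and ATP transport and the ATP synthase, 6 were called lower in each genotype, with medians of -0.66 and -0.44. MIR1, the phosphate carrier, fell by 0.81 (log2, SE 0.0517) in WT and by 0.46 (SE 0.0511) in H113N, and POR1, the outer membrane porin, by 0.98 (SE 0.0785) and 0.44 (SE 0.0775). The genes that modify eIF5A or act in elongation were mixed. Of 7, 3 were called higher and 1 lower in WT and 2 were called higher and 5 not called in H113N, with medians of 0.13 and 0.056, and the 1 lower was below the 25% of all genes. That 1 was LIA1, the deoxyhypusine hydroxylase that completes hypusine, named after its values were seen, with log2 fold changes of -0.69 in WT (SE 0.126, adjusted p = 0.000228, edgeR) and -0.24 in H113N (adjusted p = 0.204, edgeR). DYS1, the deoxyhypusine synthase that modifies eIF5A, rose by 0.71 (log2, SE 0.0447) in WT and by 0.27 (SE 0.0445) in H113N. EFT1, which encodes elongation factor eEF2, rose by 0.52 (SE 0.0623) in WT, but 91.9% of its words of 50 bases recur elsewhere in the genome, chiefly in its copy EFT2, and its own share of the reads is uncertain.

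For each member whose group means spanned at least 1 on the log2 CPM scale, the genes most like it over the 16 libraries were listed by Pearson's r. These are descriptions of libraries that form 4 groups and share depth and treatment, and carry no test. They were QCR7 (0.989), COX8 (0.987) and QCR10 (0.984) for CYC1, and COR1 (0.989), SDH3 (0.989) and COX15 (0.986) for COX5A. For HYP2 they were its neighbour MTC7 (0.995), VRG4 (0.986) and CIR2 (0.986), and for PET9 MIR1 (0.987), ATP5 (0.987) and COX13 (0.983). ANB1 was most like FIT2 (0.988), GTO3 (0.986) and FRE5 (0.986), AAC3 like SSK22 (0.972), PGU1 (0.971) and KTR2 (0.969), and AAC1 like IRC18 (0.987), DAL1 (0.976) and YSW1 (0.972). The highest values for the scarce CYC7 were lower, with SNA4 (0.894), ROM1 (0.89) and YNL092W (0.885), and COX5B spanned too little to be compared.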

How the data were processed

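The authors deposited whole-number counts of reads per gene for 16 libraries. The submitters' processing notes name FastQC, cutadapt, HISAT2, featureCounts, DESeq2 and the build sacCer3, without versions. The annotation, the use of strand, the read length and the handling of reads that match in several places are not given in the sources used here. A second deposited table holds normalized counts, a signal equal to the counts divided by 1 size factor per library (DESeq2's median of ratios, by recomputation), and the authors' adjusted p-values. That table gave the gene names. Columns of values that could not be tied to a sample numbered 0.

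Tests on counts used edgeR 4.0.16 under R 4.3.3. filterByExpr kept 5876 genes, about 1.17 CPM in at least 4 libraries. Library sizes were scaled by TMM, and 1 quasi-likelihood model with a mean per group was fitted to 16 libraries. The 5 contrasts were the shutoff in WT, the shutoff in H113N, H113N against WT with YFH1 expressed, the same with it shut off, and the difference between both shutoff effects (the interaction). P-values were adjusted by Benjamini-Hochberg over all genes tested in a contrast, with a threshold of 0.05. SE is the log2 fold change over the square root of F, and log2 CPM values have a prior count of 2. A floor of 3 counts is 0.279 to 0.487 CPM. The exact intervals of summed counts and the floors cover counting error only. The 95% intervals of edgeR log2 fold changes come from the SE with a normal multiplier. They include the spread between libraries and are somewhat narrower than the quasi-likelihood test implies.

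Ratios are log2 of the counts of both copies in a library, each plus 0.5, and do not depend on library scaling. Their groups were compared with two-sided exact permutation tests (SciPy 1.17.1), for the interaction over differences of same-numbered libraries, a matching by number only. Replicates are separate samples by their titles. Nothing says that they came from separate cultures, so p-values measure the spread between these samples, which may be technical. None of the 24 replicate pairs was identical.

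Sequences and gene models came from RefSeq R64, to which 6005 of 6692 identifiers matched by locus tag, and all 9 members. The members and lists were chosen with earlier results of these data known. The genes named were the members, YFH1, ROX1, HAP1 and HAP4, from each list those with the smallest adjusted p in WT shutoff and the smallest interaction p, and the 3 genes most like each member; FET3 and MTC7 were named as neighbours, MF(ALPHA)2 as a marker at 0, and HEM13 and LIA1 after their values were seen. Alternatives were other scaling, filters, tool (DESeq2 1.42.0), libraries, pseudocount and a replicate block.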

Additional observations from a re-analysis of the deposited data

Results flagged for a closer look

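A library stood apart from the other 3 of its group in 4 of 56 groups of values tested, where the gap to the nearest library took up more of the range than Dixon's 95% critical value for 4 samples; chance gives about 1 in 20 groups. The gap was 0.89 of the range for CYC1 in WT, where replicate 2 was highest, and 0.893 for AAC3 in WT, where the same library was lowest. For COX5B to COX5A in H113N YFH1-off it was 0.866, with replicate 2 lowest. For ANB1 to HYP2 in WT YFH1-off it was 0.946, with replicate 5 lowest.

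Effects of YFH1 shutoff that differed between WT and H113N were also singled out, by the interaction term of the edgeR fit with an adjusted p under 0.05. The differences on the log2 scale were 4.49 for CYC1, 1.21 for COX5A, 1.00 for HYP2 and 0.64 for PET9, whose transcripts fell less in H113N, and -2.58 for ANB1 and -0.93 for AAC3, which rose less. By an exact permutation test of the off-minus-on differences, at the smallest p the design allows (0.0286), the log2 ratios differed by -4.70 for CYC7 to CYC1, -1.62 for COX5B to COX5A, -3.62 for ANB1 to HYP2, -1.58 for AAC3 to PET9 and -0.92 for AAC1 to PET9.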

How the results depend on the processing

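The ratios kept their direction and their side of the threshold with a pseudocount of 2 and on the authors' normalized counts. The normalized counts divide both copies in a library by the same factor, so they could hardly move a ratio. Leaving out libraries gave no p-value for the ratios. Their direction held without each library in turn, which was added after seeing the data. The count of genes called ran from 637 to 1307 for the shutoff in H113N (1209 in all libraries) and from 1173 to 2074 for the interaction (1808) when 1 replicate number was left out; the highest counts were those without replicate 2, and the cause was not tested. Of the alternative values for single genes, 1109 kept their call, 33 lost one, 8 gained one and no called value changed sign. Beyond those given beside the results, the COX5A difference between genotypes with YFH1 on was not called on the groups compared alone (-0.27) or without replicate 2 (-0.11), 4 (-0.29) or 5 (-0.33) of every group, and that of CYC1 without replicate 2 (-0.26), 3 (-0.47), 4 (-0.49) or 5 (-0.44). CYC7 was called there without replicate 2 (1.83), a call that carries no support because CYC7 passed the filter only through the H113N groups. The COX5B difference while YFH1 was off was lost without replicate 3 (-0.44), 4 (-0.40) or 5 (-0.39), and its interaction was called without replicate 2 (-0.54). CYC1 and CYC7 were not tested where at least 10 counts were asked for in every library. The uncalled CYC7 log2 fold change with shutoff in WT ran from -0.42 to 0.99.

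The replicate numbers were not taken to pair the libraries: for same-numbered libraries the mean correlation over genes was -0.0768 for the shutoff in WT, 0.134 in H113N, 0.0197 between genotypes while YFH1 was on and 0.123 while it was off, and in each comparison at least 1 pair was under 0.1. Libraries of different numbers were not compared in this way, so a weak pairing cannot be told from these values. With the replicate block the counts of calls were 2944, 1218, 2716, 3088 and 1802 for the 5 contrasts, against 2909, 1209, 2716, 3078 and 1808, and no member's call changed. AAC3 in H113N shutoff was not called without replicate 3 (0.31) or 4 (0.37) of every group, and COX5B in WT shutoff was called without replicate 2 (0.34). The ratio interactions, which set off against on libraries of the same number, had an exact permutation p of 0.0286 under each of the 576 ways to match off with on libraries within both genotypes, added after seeing the data. The depth limits CYC1 in WT YFH1-off, at 11 counts in 4 libraries, and CYC7 throughout.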
